A study of Homo sapiens with 7 samples.

Results

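Strong binding sites of the transcription factor ATF4 lay inside or near 10 genes that are not part of the textbook ATF4 program: TEK, FNDC3B, CYP2A7, PGPEP1, ATXN1, EEIG1 (also known as FAM102A), B4GALT5, TBC1D16, TCP11L2 and KLHDC4. The genes were chosen from the ATF4 signal itself, because a strong or strongly changed ATF4 region lay at or near them. Their own ATF4 values are therefore given as a description and without a test. They are 10 of 20056 protein-coding genes. Every ATF4 or MYC peak whose centre lay inside a gene's span or within 50 kb of it was taken as a peak of that gene. The ATF4 region with the highest signal after MYC activation, among regions found in both activated libraries, is called its leading region. All 10 genes had such a region, against 3.14% of protein-coding genes (629 of 20056). None of the 10 was on a list of 35 known ATF4 targets, but the PGPEP1 region was also the leading region of the known target GDF15, and a second KLHDC4 region lay 23.1 kb from the known target SLC7A5.

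Binding was measured by ChIP-seq, the sequencing of DNA that an antibody pulls down with its protein, in DLD-1. This cell line comes from a human colon adenocarcinoma, and had been infected with a retrovirus that expresses MycER, a MYC protein fused to a hormone-binding domain of the estrogen receptor that keeps it inactive until 4-hydroxytamoxifen is added. In the activated group, DLD-1 MycER cells received 500 nM 4-hydroxytamoxifen and chromatin was taken after 8 hr. ATF4 was profiled in 2 activated libraries, and MYC in 2 further activated libraries. In the control group, the same MycER cells received vehicle, and ATF4 was profiled in 2 libraries. All groups carried MycER, and no sample of cells without MycER was analysed here, so an effect of the inducer and an effect of MYC activation cannot be told apart. MYC without activation was not analysed here, and the 1 IgG sample contributed no peaks. The labels do not say whether replicates were separate cultures, so the spread between them may be technical. RNA was not measured, and assignment of a region to a gene is by distance alone.

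ATF4 is a basic leucine zipper protein whose translation increases when the initiation factor eIF2 is phosphorylated during amino acid shortage, endoplasmic reticulum stress and related insults. It pairs with C/EBP family proteins on a composite DNA element with the core TGATGNAA, and drives genes of amino acid synthesis, amino acid transport and tRNA charging. MYC pairs with MAX on the E-box CACGTG, and raises ribosome production and protein synthesis in tumour cells.

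Of the leading regions at the 10 genes, 1 overlapped a promoter for which a reference sequence was in hand. Its sequence is shown because it holds the ATF4 element near the centre of the region. This is the region assigned to KLHDC4 (chr16:87779081-87779309 on GRCh38), which lay 13209 bp outside the KLHDC4 span. Its centre lay 47 bp from the start of LOC102724467, a long non-coding RNA gene on the minus strand, and 3.53 kb from another, LOC105371399. The region shared 211 bases with the promoter of LOC102724467 in the RefSeq promoter table of GRCh38.p14 (chr16:87779099-87779398, minus strand, from 250 bases before to 50 bases after the start). The promoter reads, 5′ to 3′ on the minus strand, with both matches to TGATGNAA in capitals:
LOC102724467: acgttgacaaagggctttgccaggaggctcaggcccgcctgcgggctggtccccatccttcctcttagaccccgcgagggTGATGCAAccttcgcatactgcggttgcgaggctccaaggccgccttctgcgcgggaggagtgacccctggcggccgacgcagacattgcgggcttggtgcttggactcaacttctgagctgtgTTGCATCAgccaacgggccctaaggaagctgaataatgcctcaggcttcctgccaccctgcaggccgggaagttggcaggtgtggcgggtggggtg
The match at bases 205 to 212 reads on the other strand and lay at chr16:87779187-87779194. It was inside the ATF4 region, and its centre was 4 bp from the centre of the region, which joins the peaks of all 4 ATF4 libraries. From the centres of the single peaks it was 22.5 and 16.5 bp in activated replicates 1 and 2. In control replicates 1 and 2 these distances were 2.5 and 3.5 bp. The match at bases 81 to 88 lay at chr16:87779311-87779318, and began beyond the end of the region, with its centre 120 bp from the region's centre. TGATGNAA was searched on both strands, and 3.62% of 35116 promoters of 300 bases in the table held it.

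Stretches of 30 bases around the element are set beside those at known ATF4 targets whose promoters overlapped an ATF4 region found in both activated libraries. There were 7 such targets, of which 5 held TGATGNAA in that promoter (ASNS, CHAC1, SLC1A5, FGF21 and SLC3A2) and 2 did not (PCK2 and PSAT1). Stretches from 4 are shown so that the element near KLHDC4 can be compared with textbook sites, and the match of SLC3A2 lay too near the end of its entry to give 30 bases. Each is read on the strand that gives the core as TGATGNAA, with the core in capitals. The stretches shown are from ASNS, asparagine synthetase (chr7:97872458-97872487, minus strand), CHAC1, a glutathione-degrading enzyme (chr15:40953251-40953280, minus strand), SLC1A5, a glutamine transporter (chr19:46784893-46784922, minus strand), and FGF21, a stress-induced hormone (chr19:48755459-48755488, minus strand). The pair from LOC102724467 lay at chr16:87779176-87779205 on the plus strand, inside the ATF4 region, and at chr16:87779300-87779329 on the minus strand, where the core was outside it.
LOC102724467 inside the region: ggcccgttggcTGATGCAAcacagctcaga
LOC102724467 outside the region: ccccgcgagggTGATGCAAccttcgcatac
ASNS: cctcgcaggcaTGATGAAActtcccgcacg
CHAC1: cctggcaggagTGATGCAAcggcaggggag
SLC1A5: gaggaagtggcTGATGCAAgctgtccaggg
FGF21: ctcctcctcccTGATGCAAtcctggtgttt
Of 28 promoters in the table that overlapped an ATF4 region found in both activated libraries, 17 held TGATGNAA (60.7%). Of 1154 promoters that overlapped a MYC region found in both libraries, 2.43% did. The E-box CACGTG, which reads the same on both strands, was in 7.14% of the 28 promoters, in 23.1% of the 1154 and in 7.26% of all 35116. A match is a description of these letters and not evidence of a site in use.

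For 7 of the 10 genes the table held promoters, 11 in all. None of the 11 was overlapped by any ATF4 or MYC peak of any library, and 0 of 11 held TGATGNAA or CACGTG. Of all 35116 promoters 11.7% were overlapped by such a peak, 3.62% held TGATGNAA and 7.26% held CACGTG, so 0 of 11 is near these shares. PGPEP1, TBC1D16 and KLHDC4 had no entry. The leading regions of the 7 genes thus lay outside their promoters. The centre was inside the span of the named gene for 7 of 10, while 46.9% of the 352 ATF4 regions found in both activated libraries lay inside some protein-coding gene. Within 1000 bp of an end of a protein-coding gene there were 0 of 10, against 9.66% of the 352. Gene spans only were compared, and exons were not analysed here.

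Signal is given as the authors' normalized tag count, the number of sequence tags in a peak per 10 M tags of the library, called tags below. The median width of an ATF4 peak was 170 and 204 bp in activated replicates 1 and 2. It was 184 and 212 bp in control replicates 1 and 2, and tags were not adjusted for width. The ATF4 libraries held 24.95 and 49.75 M tags after activation (replicates 1 and 2), against 22.4 and 50.28 M in control cells, and the MYC libraries held 21.04 and 50.11 M. Depth thus follows the replicate number, and each comparison is also given within it. The lists held 1270 and 2231 ATF4 peaks after activation, against 916 and 1579 in control cells, and 8636 and 22532 MYC peaks. Peaks sharing 1 bp or more were joined into a region, and 105 of the 352 ATF4 regions found in both activated libraries also had peaks in both control libraries (29.8%). These 105 are called common regions, and all 10 leading regions were among them. A region enters that set only if it was also a peak in control cells, so regions new after activation are not in it.

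All 10 leading regions had more tags in both activated libraries than in either control library as scaled by the authors, although at TCP11L2 and KLHDC4 the direction turned when each library was centred on its median over the common regions. Among all common regions 73.3% did (77 of 105), and because the genes were chosen from this contrast, nothing is read from the difference. The 10 were also higher within each replicate number, as were 78.1% of common regions. The median log2 change, taken on tags + 1 as activated minus control, was 0.98 over the 10 and 0.54 over the 105. Within replicate number 1 these medians were 0.64 and 0.37, and within replicate number 2 they were 1.11 and 0.74. The change was larger in replicate number 2 at 8 of the 10 leading regions, and at 81 of the 105.

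**Figure D1:**
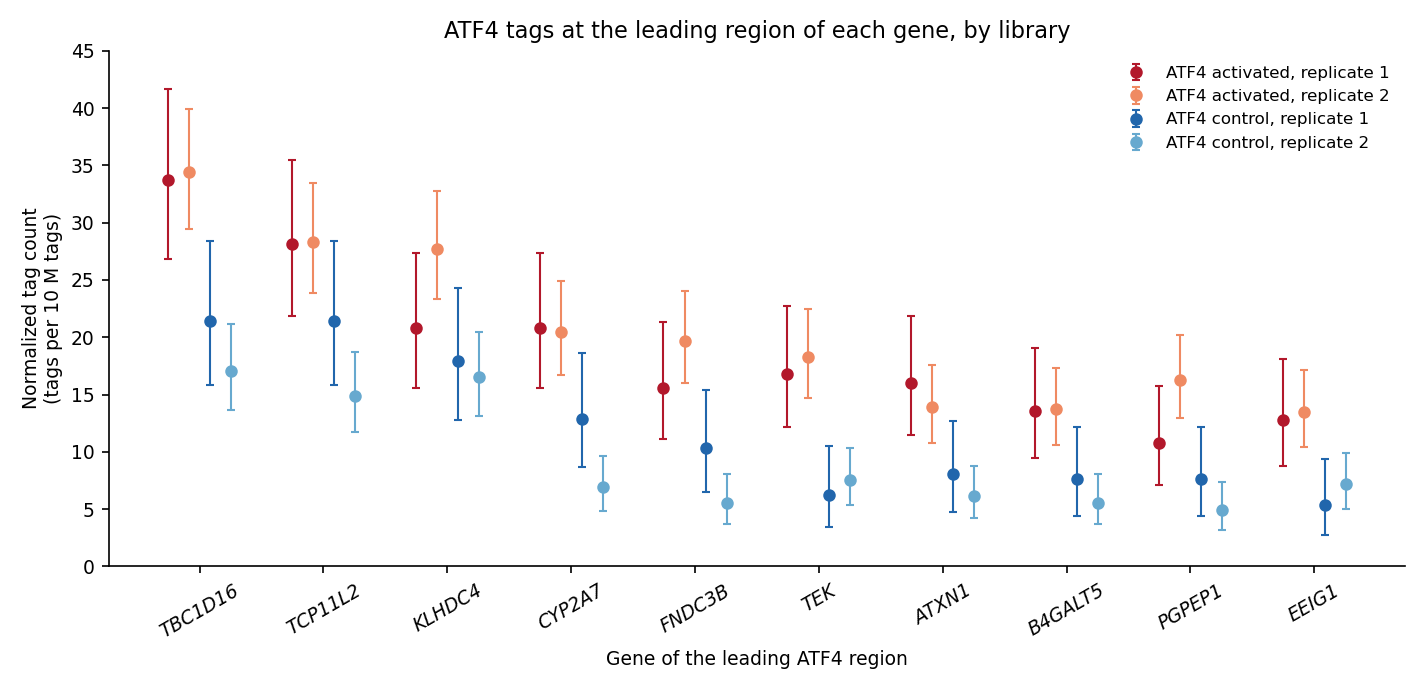
Normalized ATF4 tag count (vertical axis, tags per 10 M tags) at the leading region of each gene (horizontal axis, ordered by the activated mean) in the 2 activated and the 2 control libraries. Bars are exact 95% Poisson intervals of the reads behind each point and cover counting error only. Both activated points lie above both control points at each gene as scaled by the authors (the direction turns at TCP11L2 and KLHDC4 after centring on library medians), from TBC1D16 at 33.7 and 34.4 against 21.4 and 17.1 tags down to EEIG1 at 12.8 and 13.5 against 5.36 and 7.16 tags.

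Counting error was large at these depths. The leading peaks rested on 27 to 84 reads in activated replicate 1 and 67 to 171 in activated replicate 2, against 12 to 48 in control replicate 1 and 25 to 86 in control replicate 2. Within replicate number 2 the exact 95% Poisson intervals of activated and control libraries were apart at all 10 genes, and at 46.7% of the 105 common regions with the activated library higher. Within replicate number 1 they were apart at 1 gene, TEK, overlapped at the other 9, and were apart at 3.81% of common regions. The genes were chosen from this contrast, so nothing is read from these counts. Intervals cover counting error only and not the spread between libraries. They may be too narrow even for counting error, because sequence tags without molecular identifiers are not independent molecules.

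Among the membrane proteins, TEK encodes TIE2, the angiopoietin receptor tyrosine kinase of endothelial cells. Its leading region (chr9:27194394-27194644) lay inside the gene, 85.1 kb from the nearest of its starts in the promoter table. It had 16.8 and 18.3 tags in activated replicates 1 and 2, against 6.25 and 7.55 tags in control replicates 1 and 2. The activated libraries were close to each other, the control libraries were also close, and the groups did not overlap. The means were 17.55 ± 1.06 tags after activation and 6.9 ± 0.919 tags in control cells (SD, n = 2 each), a ratio of 2.54. The log2 change of 1.24 ranked 1 of the 105 common regions, with 1.30 in replicate number 1 and 1.17 in replicate number 2. The counting intervals were 12.1 to 22.8 and 14.7 to 22.5 tags after activation, against 3.42 to 10.5 and 5.35 to 10.4 tags in control cells.

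FNDC3B encodes a membrane-anchored protein of the endoplasmic reticulum with fibronectin type III domains. Its leading region (chr3:172129995-172130210) lay deep inside the gene, 89.6 kb from the nearest start. It had 15.6 and 19.7 tags after activation, against 10.3 and 5.57 tags in control cells. The groups did not overlap, but the 2 control libraries stood far apart, so that the log2 change of 1.11 was made of 0.55 in replicate number 1 and 1.66 in replicate number 2. The means were 17.65 ± 2.90 and 7.94 ± 3.34 tags in activated and control cells (SD, n = 2 each), so the spread within each group was large. A further ATF4 peak of 3.42 tags, 212 kb away in the same gene, was in activated replicate 2 only.

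Among the enzymes, CYP2A7 belongs to the cytochrome P450 2A subfamily and lies in a cluster of closely similar genes and pseudogenes. Its leading region (chr19:40897300-40897515) was 15176 bp outside the gene and inside the span of CYP2G1P, a transcribed pseudogene. CYP2A6, the nicotine-oxidizing member of the cluster, was 47.0 kb away. How tags that match several places were treated is not given in the sources used here, so a share of the signal could belong to a similar sequence elsewhere in the cluster, which was not tested. The region had 20.8 and 20.5 tags after activation, against 12.9 and 6.96 tags in control cells. The activated libraries were nearly equal, the control libraries differed, and the groups did not overlap. The log2 change was 1.04, with 0.65 in replicate number 1 and 1.43 in replicate number 2. The authors' fold over the background library was 90.2 and 88.7 after activation, against 56.0 and 30.1 in control cells. These folds rest on very few background tags, listed as 0.6 and 1 after activation, and as 0.5 and 1 in control cells. Their size is therefore not a measure of strength.

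PGPEP1 encodes pyroglutamyl-peptidase, which removes pyroglutamate from the start of peptides. Its leading region (chr19:18365053-18365273) lay inside the gene, 4.79 kb from its end. The same region was 20995 bp from GDF15, a stress-induced cytokine and known ATF4 target, and was also the leading region of GDF15 by the same rule. It had 10.8 and 16.3 tags after activation, against 7.59 and 4.97 tags in control cells. The groups did not overlap, and activated replicate 1 stood closer to the control libraries than activated replicate 2 did. The log2 change was 1.00, with 0.46 in replicate number 1 and 1.53 in replicate number 2. A weaker peak of 4.42 tags in activated replicate 2 only lay between the region and GDF15, 7236 bp from GDF15. Distance does not say which of the genes the region belongs to.

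B4GALT5 encodes a Golgi galactosyltransferase that makes lactosylceramide. Its leading region (chr20:49700689-49700906) lay inside the gene, 13.1 kb from a start. It had 13.6 and 13.7 tags after activation, against 7.59 and 5.57 tags in control cells. The activated libraries were almost identical, and both lay above the control libraries. The log2 change of 0.96 had 0.77 in replicate number 1 and 1.16 in replicate number 2.

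Among the regulatory proteins, ATXN1 encodes ataxin-1, a chromatin-associated repressor whose polyglutamine expansion causes a spinocerebellar ataxia. Its leading region (chr6:16755053-16755274) lay inside the gene, 5.02 kb from one of its starts, and was the closest of the 7 to a start in the promoter table. It had 16 and 13.9 tags after activation, against 8.04 and 6.16 tags in control cells. The groups did not overlap, and the change was alike in both replicate numbers, at 0.91 and 1.06 on the log2 scale, with a mean of 0.98. ATXN1 also had a second ATF4 region found in both activated libraries, 28.8 kb away (chr6:16726210-16726428). There the tags were 6.41 and 7.23 after activation, against 8.48 tags in control replicate 1 and no peak in control replicate 2, so activated replicate 1 was below its control. The same gene thus held a region higher after activation and another without that pattern.

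EEIG1 encodes an estrogen-induced regulator of osteoclast formation. Its leading region (chr9:127965530-127965766) lay inside the gene, 14959 bp from a start. It had 12.8 and 13.5 tags after activation, against 5.36 and 7.16 tags in control cells. The groups did not overlap. The log2 change of 0.97 was 1.12 in replicate number 1 and 0.83 in replicate number 2, and TEK and EEIG1 were the 2 genes at which replicate number 1 had the larger change.

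TBC1D16 encodes a GTPase-activating protein for Rab proteins of endosomal recycling. It had the strongest leading region of the 10 (chr17:79993510-79993728), inside the gene and 42.3 kb from its nearer end. The tags were 33.7 and 34.4 after activation, against 21.4 and 17.1 in control cells. The activated libraries were nearly equal and well above the control libraries. The log2 change was 0.80, with 0.63 and 0.97 in replicate numbers 1 and 2. By mean activated tags it ranked 4 of the 352 regions, after the leading regions of the known targets DDIT4, FGF21 and SLC43A1.

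Among the little-characterised genes, TCP11L2 is named for its likeness to the testis protein TCP11. Its leading region (chr12:106288554-106288766) lay 9275 bp outside the gene and 14.1 kb from a start, with the pseudogene RNU7-94P nearer at 5671 bp. It had 28.1 and 28.3 tags after activation, against 21.4 and 14.9 tags in control cells. Both activated libraries were above both control libraries, and replicate number 1 differed less, at 0.38 on the log2 scale against 0.88 in replicate number 2. The mean log2 change was 0.63, and it was -0.015 once each library was centred on its median over the common regions. A further peak of 3.42 tags, inside POLR3B, was in activated replicate 2 only.

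KLHDC4 encodes a protein with kelch repeats. At the region whose promoter sequence is given above there were 20.8 and 27.7 tags after activation, against 17.9 and 16.5 tags in control cells. The groups did not overlap, although activated replicate 1 was only slightly above control replicate 1, and their counting intervals of 15.6 to 27.3 and 12.8 to 24.3 tags overlapped. The log2 change of 0.46 was the smallest of the 10, with 0.21 and 0.71 in replicate numbers 1 and 2, and was -0.19 after centring. KLHDC4 also had an ATF4 region listed only after activation, 27.8 kb away (chr16:87806858-87807062). It had 4.81 and 6.83 tags in the activated libraries and no peak in either control library. The lowest listed peak had 4.46 tags in control replicate 1 and 2.98 in control replicate 2. A signal of 4.81 tags was thus close to the floor of the control replicate 1 list, and a missing peak there says little. In replicate number 2 the activated signal of 6.83 tags was well above the floor of 2.98 in the control list. That second region lay 23.1 kb from SLC7A5, the large neutral amino acid transporter and a known ATF4 target. The leading region itself was 50.8 kb from SLC7A5, which had a stronger leading region of its own, 74.5 kb away from it, with 33.3 and 28.3 tags after activation, against 23.7 and 15.9 tags in control cells.

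**Figure D2:**
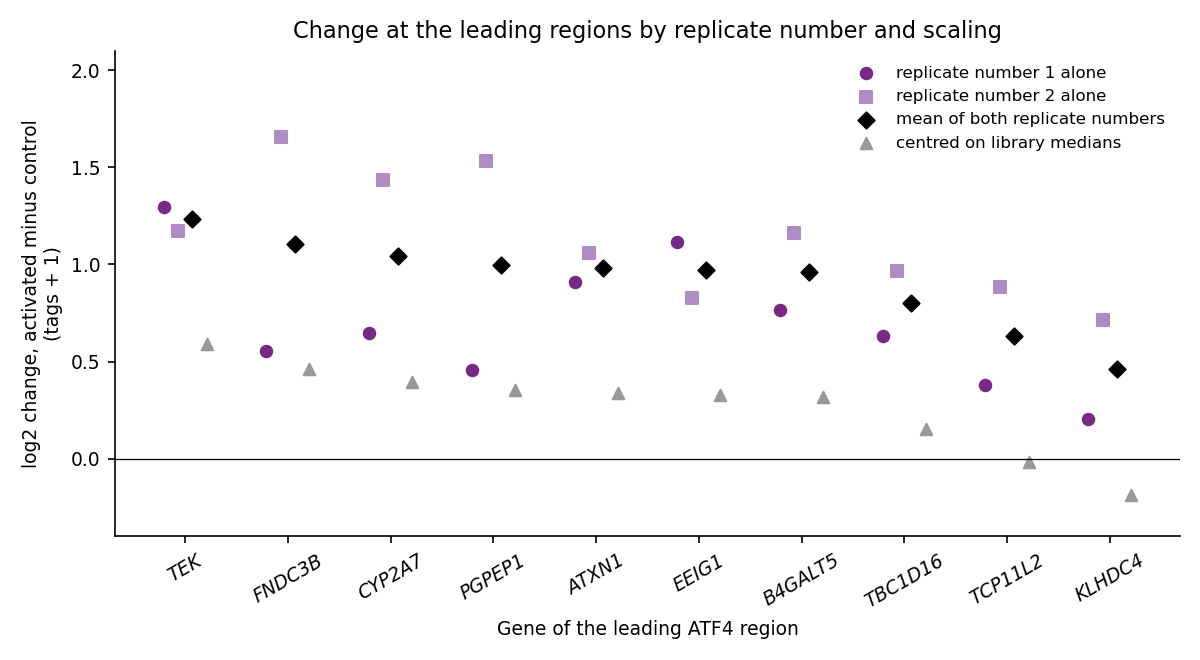
The log2 change in ATF4 tags (vertical axis, activated minus control, on tags + 1) at the leading region of each gene (horizontal axis, ordered by the mean change), within each replicate number, as the mean of both, and after each library was centred on its median over the 105 common regions. All 10 means are above 0, from 0.46 at KLHDC4 to 1.24 at TEK, and after centring TCP11L2 (-0.015) and KLHDC4 (-0.19) fall below 0.

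The direction at the leading regions depends in part on scaling. Centring the libraries moved the log2 change of every common region by 0.64, and put the median over the 105 at -0.11. Some common regions stood little above the background library, with a highest fold of 1.5 at chr2:90398996-90399208. When only peaks with a fold of at least 4 were kept, 82 common regions remained, with a median log2 change of 0.62 without centring. Centring was not run on those 82. The centred log2 changes of the 10 leading regions ranged from -0.19 to 0.59 with a median of 0.33, and were above 0 at 8 of the 10 but not at TCP11L2 and KLHDC4. Measured from the median of the common regions instead, the 10 ranged from -0.08 to 0.70 with a median of 0.44, and KLHDC4 alone was below it, while TCP11L2 was above it by 0.09. Over all common regions, limma with Benjamini-Hochberg adjustment called 39 of 105 higher after activation at an adjusted p under 0.05 (37.1%) and 0 lower. After centring it called 0 higher and 9 lower. Leaving out any 1 of the 4 ATF4 libraries also left 0 calls, with 24 to 47 regions higher at an unadjusted p under 0.05.

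Ordered by mean activated tags, the leading regions ran TBC1D16, TCP11L2, KLHDC4, CYP2A7, FNDC3B, TEK, ATXN1, B4GALT5, PGPEP1 and EEIG1. Neighbours in this order whose activated libraries overlapped were KLHDC4 with CYP2A7, FNDC3B with TEK, B4GALT5 with PGPEP1, and PGPEP1 with EEIG1. By log2 change, 6 of the 10 regions with the largest values were leading regions of these genes, and by mean activated tags 3 of the 10 strongest were. The median of mean activated tags was 17.6 over the 10 genes, and 6.82 over the 352 regions from which they were chosen. Just inside the group by change was B4GALT5 at rank 11, and the next was a region 38074 bp from DYM with almost the same log2 change of 0.96 (9.62 and 12.9 tags after activation, against 6.25 and 4.37 in control cells). Just inside by strength was KLHDC4 at rank 9, followed by the leading region of PCK2, the mitochondrial phosphoenolpyruvate carboxykinase, with 23.7 and 18.3 tags after activation, against 12.5 and 11.5 in control cells.

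**Figure D3:**
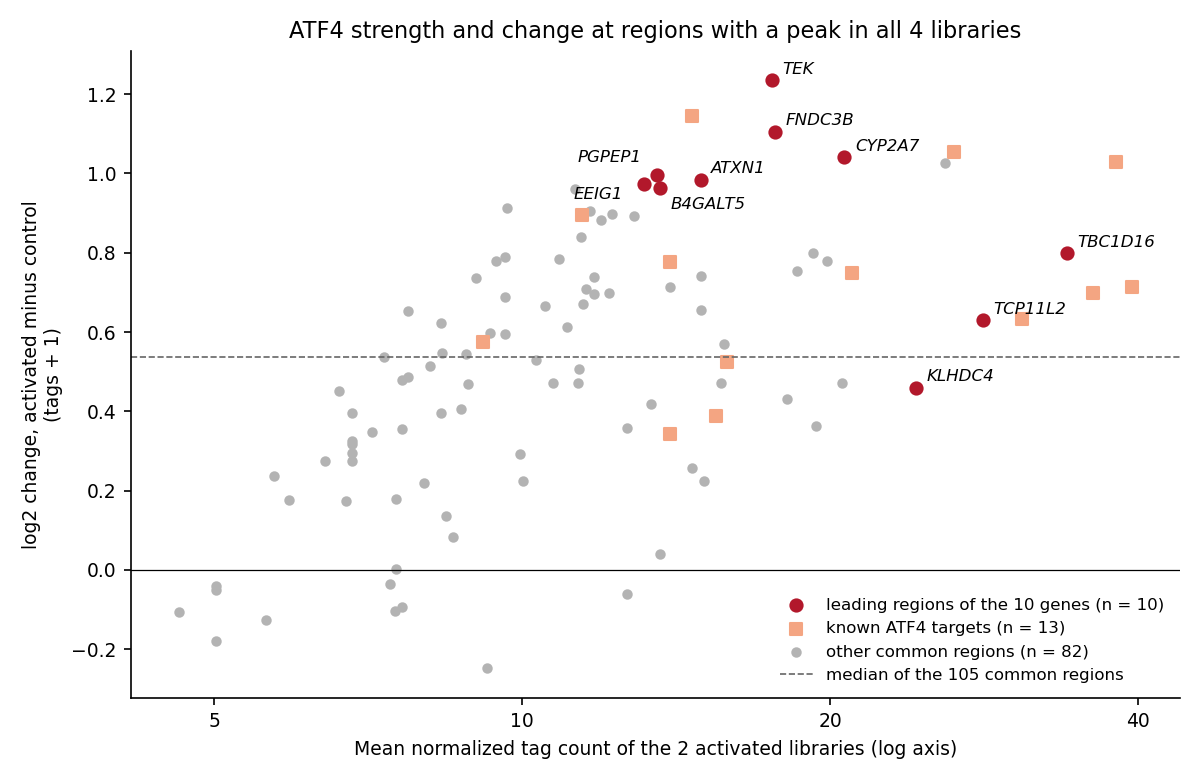
Mean ATF4 tags of the 2 activated libraries (horizontal log axis, tags per 10 M tags) and log2 change (vertical axis, activated minus control, on tags + 1) of the 105 common regions, with the leading regions of the 10 genes in red, those of 13 known ATF4 targets as squares and all others in grey. The region shared by PGPEP1 and GDF15 is drawn with the 10 genes. TEK has the highest change at 1.24, TBC1D16 and TCP11L2 lie among strong known targets, and KLHDC4 lies below the dashed median of 0.54 (after centring on library medians it and TCP11L2 are below 0).

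The genes were set beside a list of 35 known ATF4 targets treated by the same rule. Of these, 23 had an ATF4 region in both activated libraries, 12 did not, and 14 had a common region, 1 of them the region that GDF15 shares with PGPEP1. Of the other 13 regions, limma called 6 higher after activation, 0 lower and 7 in neither direction, beside 37.1% of all common regions called higher. None of the 6 calls held with the replicate block, after centring or with any 1 ATF4 library left out, since each of these fits called 0 of the 105 higher. Their median log2 change was 0.71, against 0.98 over the 10 genes and 0.54 over all common regions. The median of mean activated tags was 13.55 at the leading regions of the 23 targets. Not all of these regions lay at their target. Those of TRIB3, GDF15 and DDIT3 were 18160, 20995 and 28523 bp outside the gene. FGF21 had 42.5 and 33.6 tags after activation, against 22.3 and 14.5 in control cells. ASNS had 14 and 15.3 tags after activation, against 5.8 and 6.36 in control cells.

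The regions whose 4 values were most like those of a leading region all resembled EEIG1. By Euclidean distance over the log2 values of the 4 ATF4 libraries, the nearest was a region 9208 bp from ARHGAP28 (0.131), followed by a region 6914 bp from GNLY (0.203) and the ASNS region (0.273). The ARHGAP28 region had 12 and 13.7 tags after activation, against 5.8 and 7.16 tags in control cells.

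MYC was measured in separate libraries, and its values did not enter the choice of leading regions, although the genes were listed with MYC results of these data known. No test was made. MYC peaks found in both libraries overlapped the leading ATF4 regions of 3 genes, ATXN1, EEIG1 and TBC1D16. This is 3 of 10, against 18.5% of the 352 ATF4 regions found in both activated libraries (65 regions) and 24.8% of the 105 common regions (26 regions). At 4 further genes, FNDC3B, B4GALT5, TCP11L2 and KLHDC4, a MYC peak was in replicate 2 only, and at TEK, CYP2A7 and PGPEP1 there was none. With at least 1 MYC library the count was 7 of 10, against 44.3% of the 352. The deeper MYC library decides that count, because replicate 1 alone gave 3 and replicate 2 alone gave 7.

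At TBC1D16 the overlapping MYC region had 9.98 and 22.6 tags in MYC replicates 1 and 2, and its centre was 81 bp from the ATF4 centre. The median MYC peak had 5.7 and 4.99 tags in these libraries, so TBC1D16 was above the median in both. At ATXN1 the MYC region had 4.75 and 5.59 tags, with centres 95 bp apart. At EEIG1 it had 4.75 and 4.99 tags, with centres 32 bp apart, neither above the median peak of its library. EEIG1 had a stronger MYC region of 9.51 and 10.6 tags 2.50 kb from the ATF4 centre, where ATF4 had no peak. At the other 4 genes the single MYC peak of replicate 2 was 3.39 tags at FNDC3B, 4.19 at B4GALT5, 4.19 at TCP11L2 and 7.58 at KLHDC4. The lowest peak of MYC replicate 1 had 3.8 tags and that of replicate 2 had 2.39, so a peak as weak as that at FNDC3B lay below what the replicate 1 list holds. The peaks at B4GALT5, TCP11L2 and KLHDC4 had more than 3.8 tags, and that at KLHDC4 was also above the replicate 1 median of 5.7. Why replicate 1 had no peak at these genes was not tested.

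**Figure D4:**
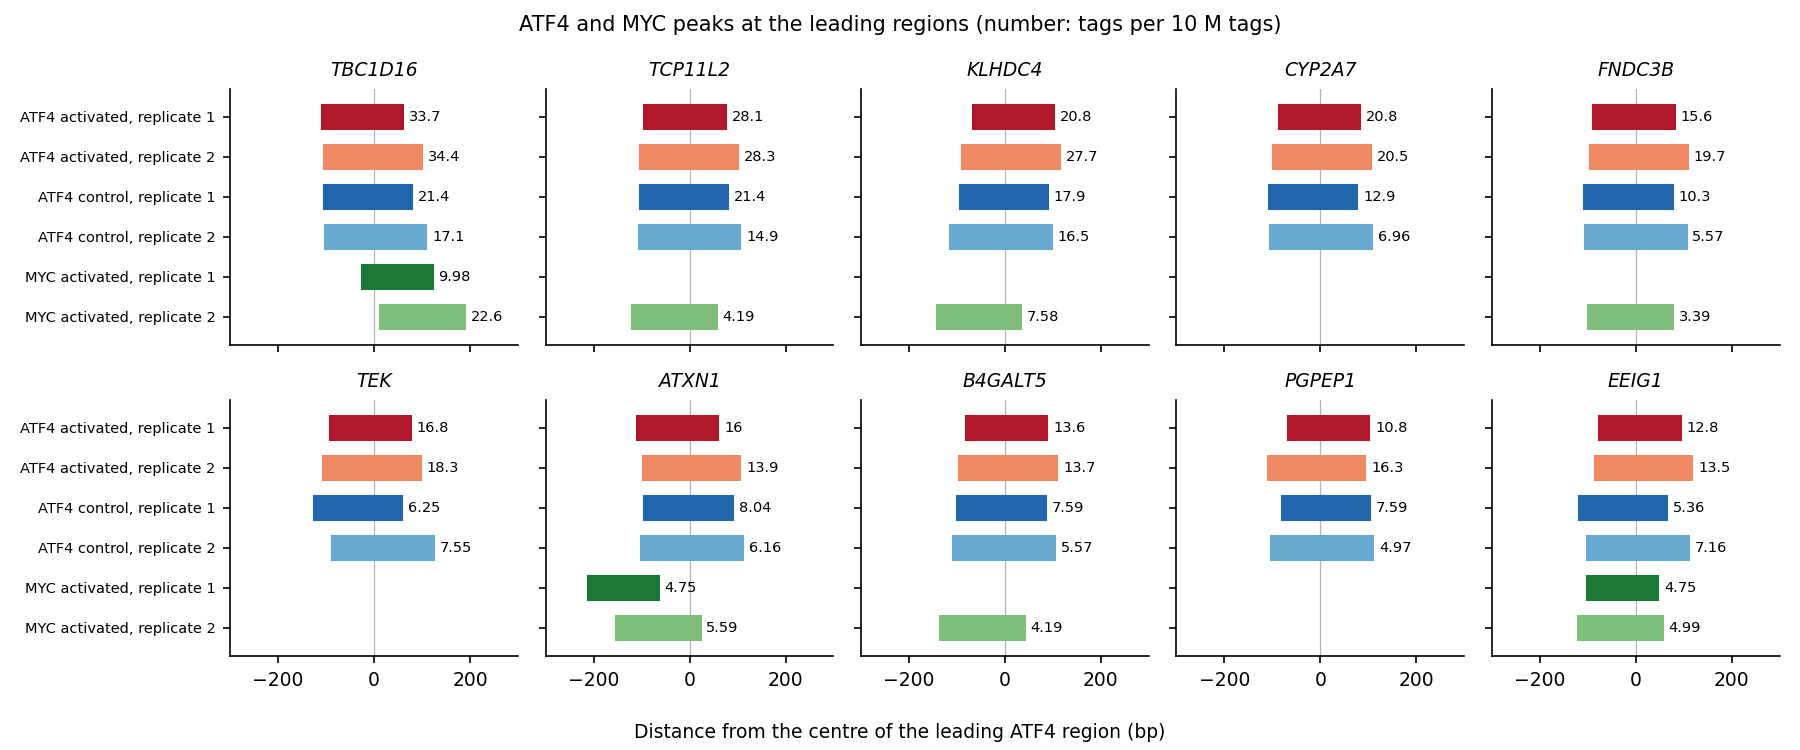
Extent of the ATF4 and MYC peaks (horizontal axis, bp from the centre of the leading ATF4 region) in each library (rows, activated above control) at the 10 genes, with the tags per 10 M tags beside each bar. ATF4 peaks are in all 4 libraries at every gene, and MYC peaks are in both libraries at TBC1D16, ATXN1 and EEIG1, in replicate 2 at TCP11L2, KLHDC4, FNDC3B and B4GALT5, and in neither at CYP2A7, TEK and PGPEP1.

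A MYC region of both libraries lay in the windows of 9 of the 10 genes, against 43.1% of protein-coding genes, and the windows of long genes such as ATXN1 (462 kb) and FNDC3B (362 kb) are wide. There were 68 MYC regions around the 10 genes, 23 in both libraries and 45 in 1. Of the 23, 4 overlapped an ATF4 region and 19 did not. Over the series 1.74% of the 6313 MYC regions found in both libraries overlapped an ATF4 region of at least 1 library, but the windows were chosen because they hold ATF4, so nothing is read from the difference. Of the 4, 3 were at the leading regions of ATXN1, EEIG1 and TBC1D16, and the other was at the second ATF4 region of KLHDC4, where MYC had 5.23 and 9.38 tags. TEK was the only gene with no MYC region of both libraries in its window, and its nearest lay 3153.1 kb away. At the other genes without overlap in both libraries, the nearest such MYC region was 1.14 kb away at KLHDC4 (6.65 and 15.4 tags), 9.30 kb at PGPEP1 (6.18 and 11.6 tags), 23.3 kb at FNDC3B (9.51 and 13 tags) and 23.9 kb at CYP2A7 (6.18 and 8.18 tags). It was 42.8 kb away at TCP11L2 and 67.7 kb at B4GALT5, in both cases just beyond the window. MYC was within 1000 bp of an end of the gene itself in both libraries at 2 of the 10 genes, against 10.1% of protein-coding genes. These were PGPEP1 (4.28 and 3.79 tags, 836 bp) and KLHDC4 (5.23 and 6.39 tags, 73 bp). ATF4 had no peak at either of these ends.

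**Figure D5:**
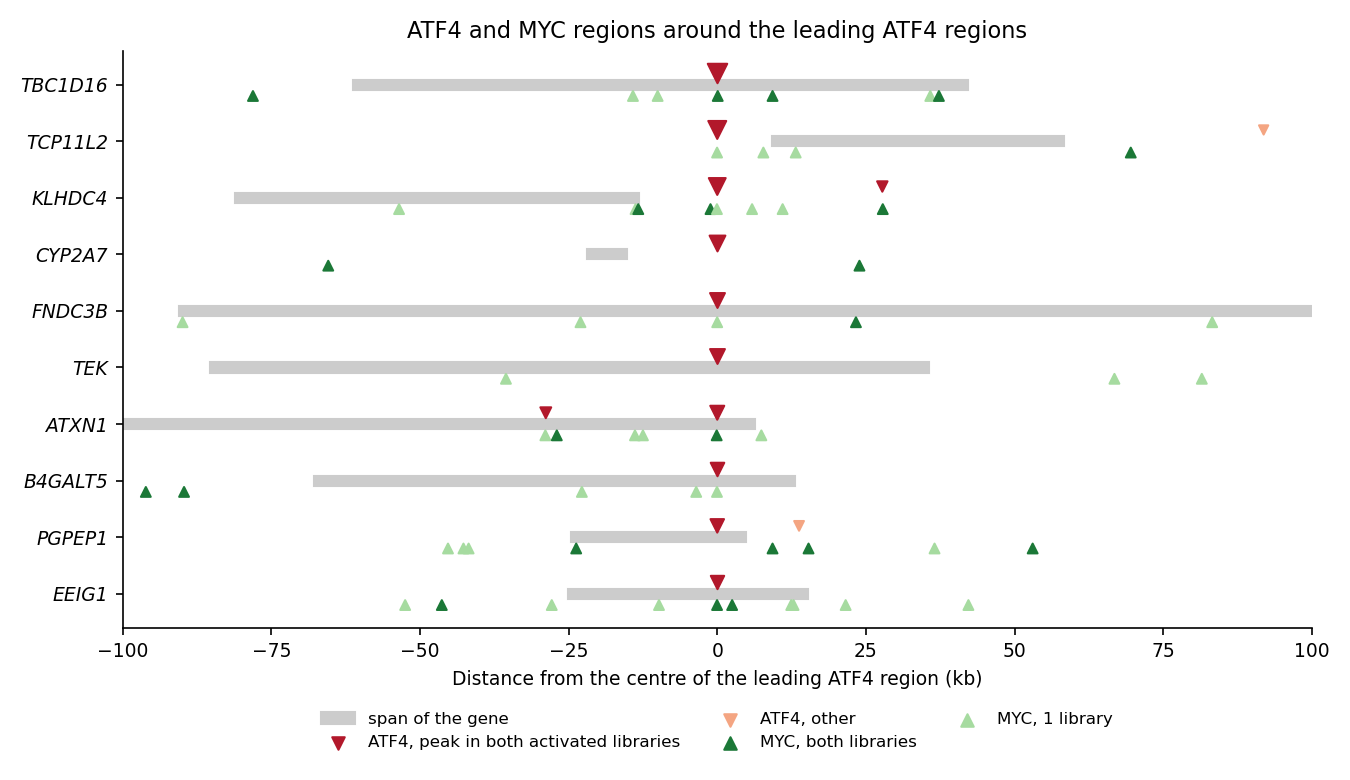
ATF4 regions (triangles pointing down) and MYC regions (triangles pointing up) around the leading ATF4 region of each gene (rows, strongest at the top), by distance from its centre (horizontal axis, kb), with the gene span in grey. Peaks beyond 100 kb are not drawn, and the size of ATF4 triangles follows mean activated tags. A second ATF4 region found in both activated libraries is seen at KLHDC4 and ATXN1, while TEK has MYC peaks of 1 library only.

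Beyond the leading regions the windows held 7 further ATF4 regions, at 5 of the genes. Of these, 5 were in 1 library only, and 2 were in both activated libraries, those of ATXN1 and KLHDC4 described above. The windows held 12 and 16 ATF4 peaks in activated replicates 1 and 2, against 12 and 10 in control replicates 1 and 2. The ATF4 signal of these genes was therefore mostly that of 1 region each. The authors' focus ratio is the share of a peak's tags that fall on the strand side facing its centre. It had a median over the 10 genes of 0.896 and 0.909 after activation, against 0.845 and 0.854 in control cells. Over all common regions those medians were 0.87 and 0.859 after activation, against 0.833 and 0.848 in control cells. TBC1D16 (0.769 and 0.792) and KLHDC4 (0.802 and 0.804) were below them in both activated libraries.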

How the data were processed

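ATF4 and MYC ChIP-seq libraries of DLD-1 MycER cells were taken as 1 peak list per library. Per the submitters' processing notes, Bowtie 0.12.9, HOMER and the hg38 build were used; settings are not given in the sources used here. Per the file headers, the lists are output of HOMER's peak finder, called per library. The signal analysed, the normalized tag count, was scaled by the authors to 10 M tags in each library. The deposited lists also give total tags as a whole-number count (replicate 1 lists), the focus ratio as a fraction, a peak score, a fold over a background library and another over nearby sequence as a ratio, and a p-value. These are the authors' own values and served only to describe or filter peaks. The background library is not named in the headers.

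Groups and replicate numbers came from the sample labels. Depth was estimated from the spacing of the lowest tag counts, and reads per peak and exact 95% Poisson intervals follow from it. Peaks were merged at an overlap of at least 1 bp, separately for ATF4 and MYC. Gene spans came from the RefSeq table of GRCh38.p14, the build of the lists, and promoter sequences from RefSeq. Common regions were compared with limma 3.58.1 (R 4.3.3) with a trend, on log2 of the deposited signal + 1. The fit was checked on simulated data with larger changes than those seen here and no shift of whole libraries. That check does not cover changes of the size seen here, or the scaling. Other values were computed in Python 3.11.15.

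All 10 genes are named. Of the rest, the text names genes nearer to a leading region than its own gene, the regions next in rank, the 3 most like regions and a list of 35 known ATF4 targets. Other names, such as CYP2A6, POLR3B and the targets used as examples, were picked once their values had been seen. The genes and lists were chosen with earlier results of these data known. Alternatives were the pseudocount, a replicate block, centring, filters on fold and level, the merging rule, the window, the overlap and leaving out each library.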

Additional observations from a re-analysis of the deposited data

How the results depend on the processing

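The count of common regions called higher after activation (39 of 105 by limma) was 0 with the replicate block (37 at an unadjusted p under 0.05; smallest adjusted p 0.115 by limma), 0 after centring on library medians (2 at an unadjusted p under 0.05, with 9 called lower), and 18 of the 38 regions with a mean of at least 10 tags, where fewer regions were tested. Leaving out any 1 ATF4 library gave 0 to 0 calls (24 to 47 higher at an unadjusted p under 0.05). Where that left 1 library in a condition, it is assumed to vary like the other condition. It stayed at 34 to 39 under the other alternatives (a pseudocount of 0.5, a fold over background of at least 4, and merging by centres within 100 bp). The labels do not say whether libraries of the same replicate number belong together, although depth follows the number. Over common regions the difference between replicates in activated cells correlated with that in control cells at 0.098. With 2 pairs, this value cannot decide whether a replicate block is needed.

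All 10 genes had a region in both activated libraries, 7 inside the span alone and 8 within 10 kb. Leaving out either activated library gave 10 to 10. That step only drops the demand for a peak in the other library, so the count could not fall and nothing is read from it. The MYC overlap at 3 genes ranged from 3 to 7 when 1 MYC library was left out (7 without replicate 1), and the other alternatives gave the same 3 genes. Leaving out a MYC library likewise drops a demand, so that step could not give fewer than 3. The median log2 change over the 10 genes, 0.98, was 0.64 in replicate number 1 alone and 0.33 after centring, where TCP11L2 (-0.015) and KLHDC4 (-0.19) reversed. The cause was not tested. The motif could not be searched in the regions themselves, because no genome was given, and a count test on reads was not run, because rounded values did not give whole reads. Depth limits the replicate 1 lists most.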
